A study of Rattus norvegicus with 6 samples.

Results

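The 10 genes described here encode the Hsp90 chaperones and their main co-chaperones in rat liver. They were chosen by name, as the 4 Hsp90 paralogs (Hsp90aa1, Hsp90ab1, Hsp90b1 and Trap1) and 6 proteins that work with Hsp90 (Stip1, Chordc1, Ahsa1, Fkbp4, Cdc37 and Ptges3), and were found through the transcript accession of each probe. All 10 were present, with 26 probes of the 61657 non-control probes on the array and 10 of the 15284 genes that could be named. All 26 probes were well above background on all 6 arrays, so none was lost to the filter on dim signals.

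Liver RNA came from 6 male Sprague-Dawley (Crl:CD(SD)) rats, with 1 single-colour Agilent array per rat. In the control group 3 rats were given corn oil, the vehicle, and in the treated group 3 rats were given o-anthranilic acid, an aromatic amino acid that the body also forms from tryptophan, at 1000 mg/kg/day. All rats were bought at 5 weeks of age and fed the same basal diet. One label gives dosing for 9 weeks and another gives measurement at 28 days, so the length of exposure is not settled, and neither label gives the age at sampling.

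Between 53.3% and 58.0% of the non-control probes were well above background on an array, and no spot was saturated. All 10 hepatocyte markers were measured, among them Alb, Apob and Ttr, and their summed signal, in multiples of the array's 75th percentile, was 4761 to 4859 in control livers and 4441 to 4549.8 in treated livers. The 5 measured T and natural killer cell markers, of 6 listed, summed to 1.48 to 1.71 in controls and 1.76 to 2.30 in treated livers. The rise was not shared by all of them, as 2 of the 5 had a negative difference. The B cell marker Cd79b, a part of the B cell receptor, had log2 levels of -2.21, -2.57 and -2.47 in controls and -1.71, -1.31 and -0.90 in treated livers, above the controls on all 3 arrays. Of 6 listed markers of pancreas, fat and muscle, the 3 measured were Ctrb1, Mb and Ckm. They summed to 0.973 to 1.13 in controls and 0.854 to 0.878 in treated livers. Prss1, Amy2a3 and the fat marker Adipoq were not above background, so the sum holds no fat marker. The groups overlapped for 6 further marker lists (macrophage, neutrophil, endothelial, cholangiocyte, stellate and red blood cell). The part of these shifts in the Hsp90 values below was not tested, and in whole liver fewer cells of a type cannot be told apart from less RNA per cell.

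Hsp90 is an ATP-dependent chaperone that acts as a dimer and finishes the folding of signalling proteins, among them steroid receptors, the aryl hydrocarbon receptor and many kinases. Hsp90aa1 encodes the stress-inducible cytosolic form and Hsp90ab1 the constitutive cytosolic form. Hsp90b1 (Grp94) encodes the form in the endoplasmic reticulum (ER), and Trap1 the form in mitochondria. Genes for the cytosolic forms and several co-chaperones are targets of heat shock factor 1 (Hsf1), whereas Hsp90b1 is a target of the ER unfolded protein response.

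Signals for both cytosolic Hsp90 genes were lower in treated livers, while for the ER gene and the mitochondrial gene the 95% intervals of the difference included 0. The inducible Hsp90aa1 was 1.81-fold lower and the constitutive Hsp90ab1 1.47-fold lower, and at all 11 probes of these genes the 3 treated arrays lay below the 3 control arrays, a pattern found at 9.65% of tested probes. Of the co-chaperones, Chordc1, Stip1 and Ahsa1 also lay below controls on every treated array, Fkbp4 did so on all but replicate 2, and Cdc37 and Ptges3 overlapped. None of the 26 probes passed the limma test at an adjusted p under 0.05, a threshold that 0.0239% of the 33428 tested probes passed as lower. At an unadjusted p under 0.05, 15 of the 26 probes were lower and 0 higher, against 6.52% of tested probes lower and 5.72% higher. Counted by gene, with the brightest tested probe standing for it, 5 of 10 were lower and 0 higher, against 6.14% of 10257 genes lower and 5.49% higher, and 0% of genes passed at an adjusted p under 0.05. The treated arrays lay wholly below the controls for 5 of the 10 genes, against 9.12% of all genes tested. The median difference over the 10 genes was -0.25 on the log2 scale, beside 0.01 over all genes tested. These counts and medians are a description, because the members were chosen with earlier results of these data known.

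**Figure D1:**
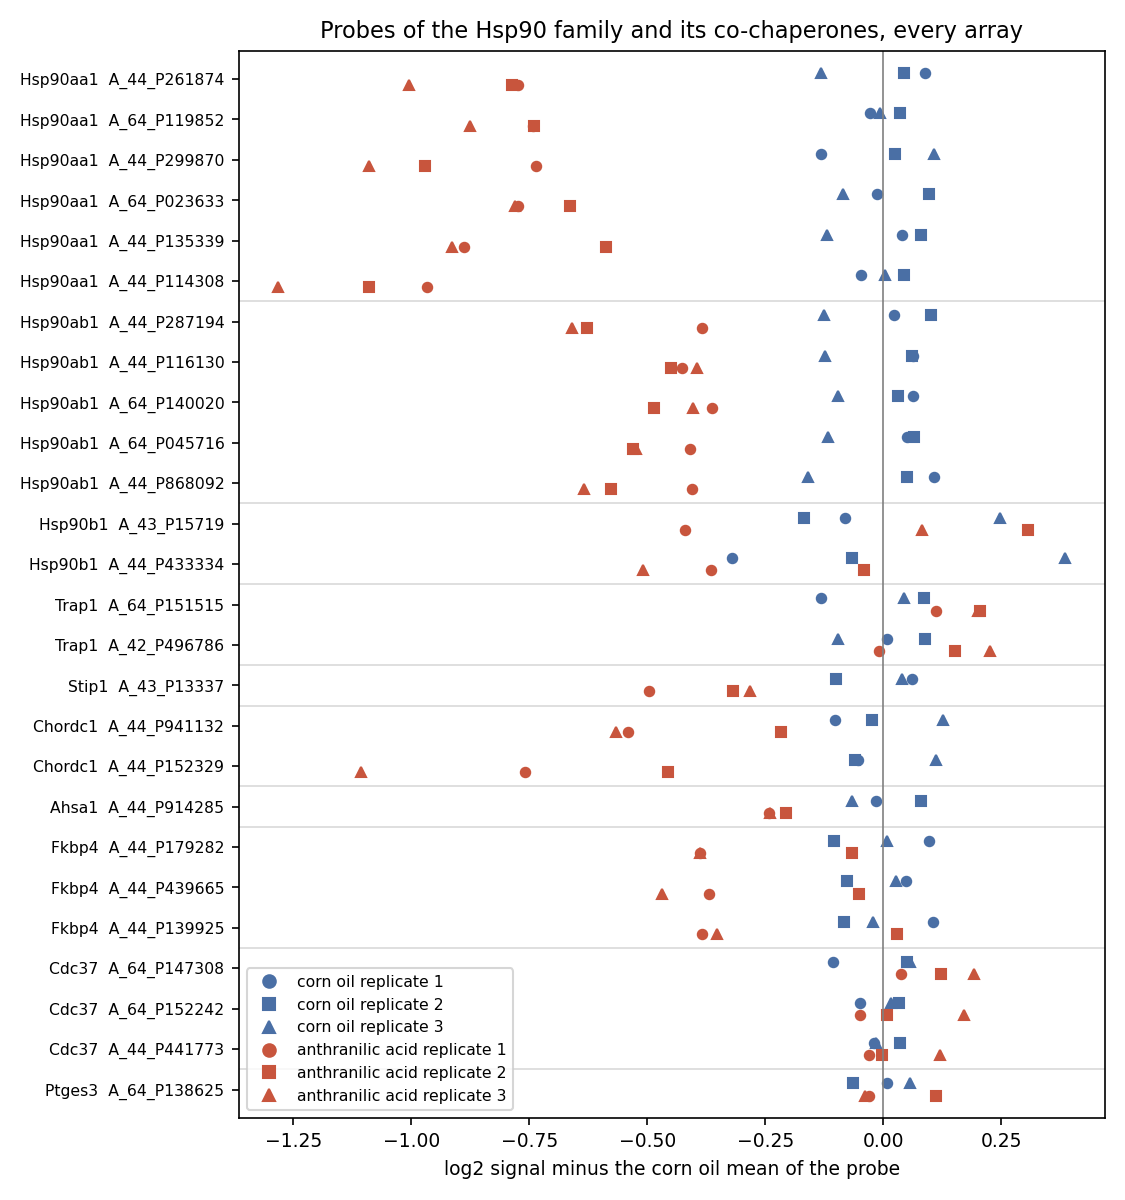
Log2 signal of each of the 26 probes on each array, minus the corn oil mean of that probe (horizontal axis), with blue symbols for corn oil and red symbols for anthranilic acid. At the 6 Hsp90aa1 and 5 Hsp90ab1 probes every red symbol lies left of every blue one, while the Hsp90b1, Cdc37 and Ptges3 probes overlap.

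Differences are anthranilic acid minus corn oil, and levels are log2 of the processed signal over the 75th percentile of its array. Hsp90aa1 (gene 299331, accession NM_175761) had 6 probes. At the brightest, A_44_P261874, the levels were 7.00, 6.95 and 6.78 on the corn oil arrays and 6.13, 6.12 and 5.90 on the anthranilic acid arrays. The groups did not overlap, and the gap between the lowest control and the highest treated array was wider than the range within either group. The difference was -0.86 (SE 0.11, 95% interval -1.12 to -0.59, limma adjusted p = 0.107), the 7th smallest p among the 10257 genes.

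The other Hsp90aa1 probes gave differences of -1.11 to -0.74, so that all 6 lay between 1.67-fold and 2.16-fold lower. The widest was at A_44_P114308, with 1.54, 1.63 and 1.59 in controls and 0.62, 0.49 and 0.30 in treated livers. This probe had the smallest adjusted p of all 26 (-1.11, SE 0.11, limma adjusted p = 0.0604). It was followed by A_64_P119852 (adjusted p = 0.0663) and A_64_P023633 (adjusted p = 0.0955), and these 3 probes were among the 0.12% of tested probes that were lower at an adjusted p under 0.1. The highest adjusted p of the 6 was 0.136. Hsp90aa1 passed the 0.05 threshold only under some other settings, with 5 of its 6 probes when the variance was fitted with both a trend and robust estimation, 4 with normexp background correction and 1 with median scaling.

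Hsp90ab1 (gene 301252, accession NM_001004082) had 5 probes. Its brightest, A_44_P287194, read 6.68, 6.76 and 6.53 in controls and 6.27, 6.03 and 5.99 in treated livers. All 3 treated values were below the control range, by -0.56 on average (SE 0.11, 95% interval -0.83 to -0.28, limma adjusted p = 0.212). The 5 probes agreed closely in size, from -0.56 to -0.42, or 1.34-fold to 1.47-fold lower, with adjusted p of 0.191 to 0.218. The coding sequences of Hsp90aa1 and Hsp90ab1 are closely similar, and the probe sequences were not used here, so some probes may detect both transcripts. The probes of the genes formed separate ranges, with no Hsp90ab1 probe shifted as far as any Hsp90aa1 probe. Separate ranges do not show how much of either signal was shared, which was not tested.

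Hsp90b1 (gene 362862, accession NM_001012197) was the most variable member. Its brighter probe, A_43_P15719, read 4.64, 4.55 and 4.97 in controls and 4.30, 5.02 and 4.80 in treated livers. The highest and the lowest value were both in the treated group, so the groups overlapped fully, at -0.01 (SE 0.21, 95% interval -0.52 to 0.50, limma adjusted p = 0.988). The dimmer probe, A_44_P433334, gave -0.30 (SE 0.21, adjusted p = 0.574) with overlap as well. The sign at the brighter probe was not stable, with 0.19 without anthranilic acid replicate 1, 0.11 without corn oil replicate 3 and 0.04 with median scaling. An interval this wide does not show that Hsp90b1 kept its level.

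Trap1 (gene 287069, accession NM_001039001) had levels of 5.71, 5.93 and 5.89 in controls and 5.96, 6.05 and 6.05 in treated livers at A_64_P151515. The treated arrays were just above the controls, by 0.17 (SE 0.09, 95% interval -0.05 to 0.40, limma adjusted p = 0.485). Trap1 was the only member with all treated arrays above all controls, which brings the members whose groups did not overlap to 6 of 10, against 19.8% of all genes tested. At its dimmer probe, A_42_P496786, the groups overlapped, at 0.12 (SE 0.10).

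**Figure D2:**
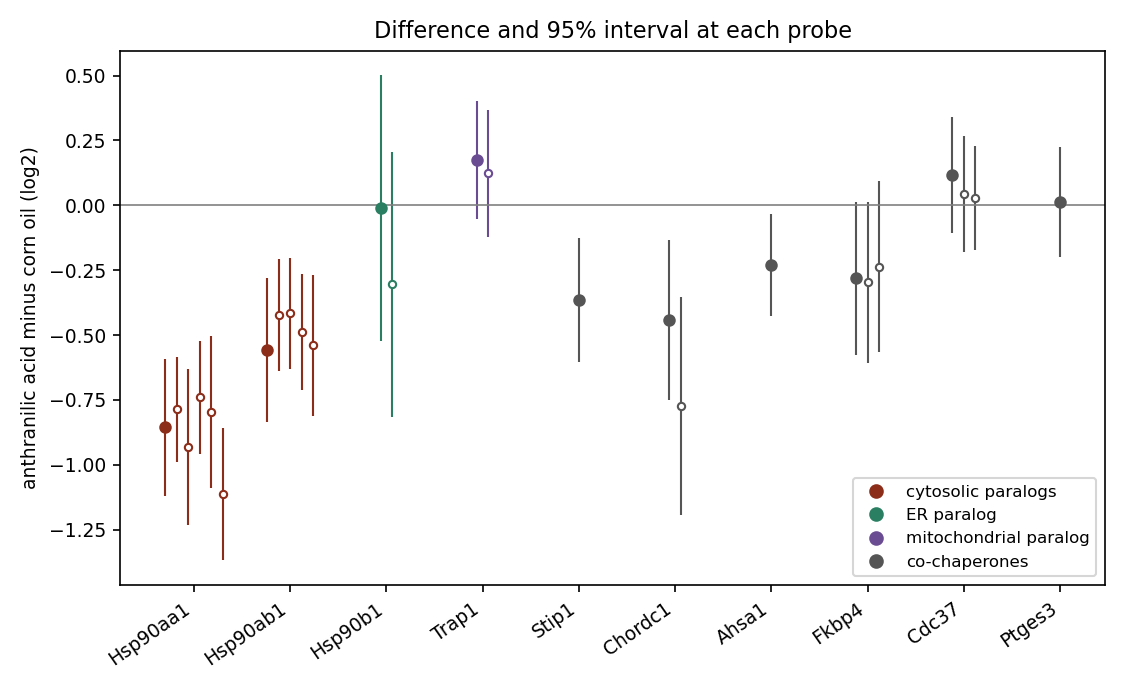
Difference between anthranilic acid and corn oil (log2, vertical axis) with its 95% interval from the limma fit, for every probe of each gene, with a filled point for the brightest probe. The 11 probes of the cytosolic paralogs have intervals wholly below 0, from -1.11 to -0.42 in their estimates, whereas all 4 probes of Hsp90b1 and Trap1 have intervals that include 0.

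The paralogs were then compared directly on each array, as the log2 ratio of one gene to another relative to its mean in corn oil livers, over 5 pairs. An exact two-sided permutation test of 3 against 3 arrays cannot give a p below 0.1, so none of the pairs could pass 0.05. Relative to Trap1, Hsp90aa1 stood at 0.22, -0.04 and -0.18 in controls and at -0.89, -0.99 and -1.21 in treated livers. This was a shift of -1.03 (SE 0.15), with the groups fully apart (exact permutation p = 0.1, adjusted over the 5 pairs 0.167). Hsp90ab1 relative to Trap1 shifted by -0.73 (SE 0.15, exact permutation p = 0.1, adjusted 0.167), again without overlap.

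Against the ER gene the contrast was less clear, because Hsp90b1 itself varied. The ratio of Hsp90aa1 to Hsp90b1 stood at 0.17, 0.21 and -0.38 in controls and at -0.35, -1.09 and -1.09 in treated livers. Corn oil replicate 3 and anthranilic acid replicate 1 overlapped, and the shift was -0.84 (SE 0.31, exact permutation p = 0.2, adjusted 0.2). For Hsp90ab1 against Hsp90b1 the shift was -0.55 (SE 0.35, exact permutation p = 0.2, adjusted 0.2), and -0.33 to -0.84 when single arrays were left out or settings changed. Within the cytosol, the inducible gene shifted further than the constitutive one, by -0.30 (SE 0.08, exact permutation p = 0.1, adjusted 0.167), with the ratio below controls on all 3 treated arrays.

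**Figure D3:**
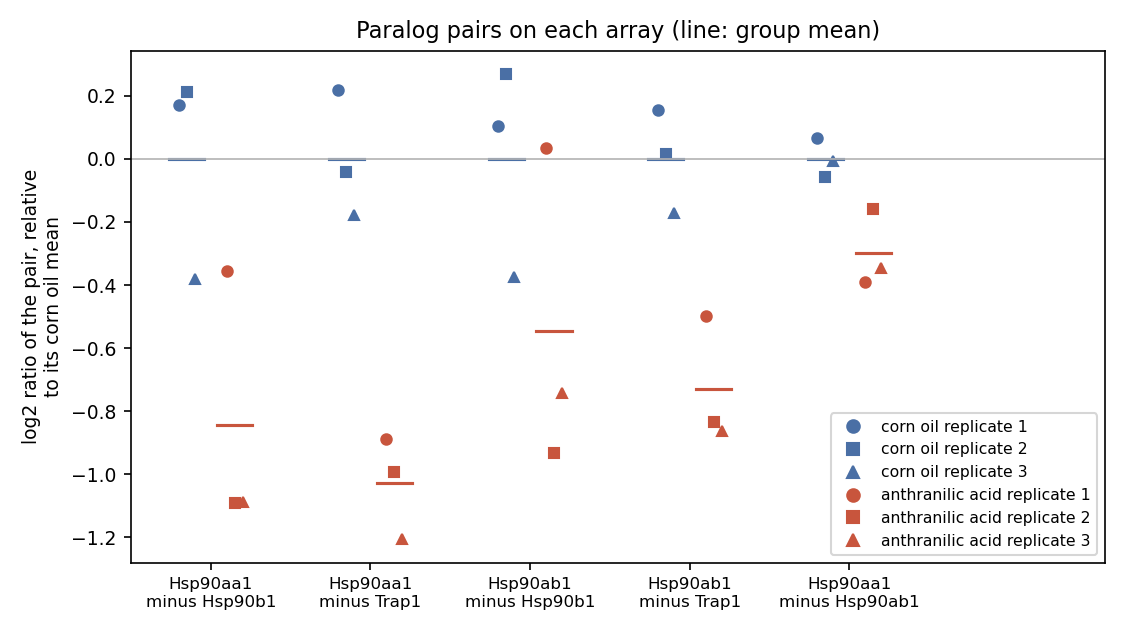
Log2 ratio of each pair of paralogs on each array, relative to the mean of that ratio in corn oil livers (vertical axis), with a line at each group mean. The ratios to Trap1 separate the groups, with shifts of -1.03 and -0.73, while the ratios to Hsp90b1 overlap.

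Since the cytosolic and ER genes are known to be driven through different promoter elements, the RefSeq promoter windows of the GRCr8 assembly, each 250 bases before and 50 after the annotated start, were searched on both strands. The table matched 9 of the 10 members, all but Hsp90aa1. The heat shock element was searched as pairs of its unit, GAANNTTC and TTCNNGAA, and as 3 units, GAA and TTC in alternation starting with either and with any 2 bases between them, so that a 3-unit match always contains both pairs. The ER stress element was searched as CCAAT and CCACG with any 9 bases between them. Of 33469 promoters, 8.59% held the first pair, 8.77% the second, 0.798% the 3 units and 0.0657% the ER stress element.

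Hsp90b1 held the ER stress element at 2 places relative to the start, from -176 to -158 and, on the opposite strand, from -72 to -54. It is shown whole because no other member held this element, with the matches in capitals, at chr7:23012294-23012543 on the minus strand of GRCr8, upstream of the gene.
Hsp90b1: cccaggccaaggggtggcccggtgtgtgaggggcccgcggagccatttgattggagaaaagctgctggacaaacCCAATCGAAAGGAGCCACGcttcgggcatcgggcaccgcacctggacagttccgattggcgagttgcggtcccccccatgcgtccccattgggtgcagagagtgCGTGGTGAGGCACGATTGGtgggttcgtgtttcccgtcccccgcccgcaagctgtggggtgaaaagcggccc

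Heat shock element letters occurred in 4 of the co-chaperone promoters, and these matches are shown because no other heat shock element letters were found in the 9 windows. In Chordc1 the 3-unit form repeated over 23 bases, from 11 to 33 bases after the start used by the table (chr8:23650828-23650856, plus strand, with 3 flanking bases on each side). In Stip1 a pair of units ended at the last base before the start (chr1:213657655-213657672, minus strand). Fkbp4 had a pair from -137 to -130 (chr4:163398038-163398065, minus strand), and Cdc37 a pair from -136 to -129 (chr8:27967049-27967076, minus strand).
Chordc1: ccgGAACGTTCGGGAAGATTCCTGAAgca
Stip1: ttctagtaggTTCCAGAA
Fkbp4: cgcttctctaGAAAGTTCtccgctcccg
Cdc37: cggcgggaacTTCCAGAAggccgcacca
Of these 4 genes, Chordc1 and Stip1 lay below controls on every treated array, and Fkbp4 and Cdc37 overlapped with them. Of the genes without a match, Hsp90ab1 and Ahsa1 also lay below controls on every treated array. The windows of Hsp90ab1, Trap1, Ahsa1 and Ptges3 held none of these letters, which says nothing of sequence outside them. Part of the 250 bases before the start lay inside the annotated span of the gene itself in some windows. This part was 174 bases in Hsp90ab1, 196 in Ahsa1, 100 in Chordc1, 79 in Ptges3 and 5 in Cdc37. For these genes the window held that much less sequence upstream of the whole gene.

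**Figure D4:**
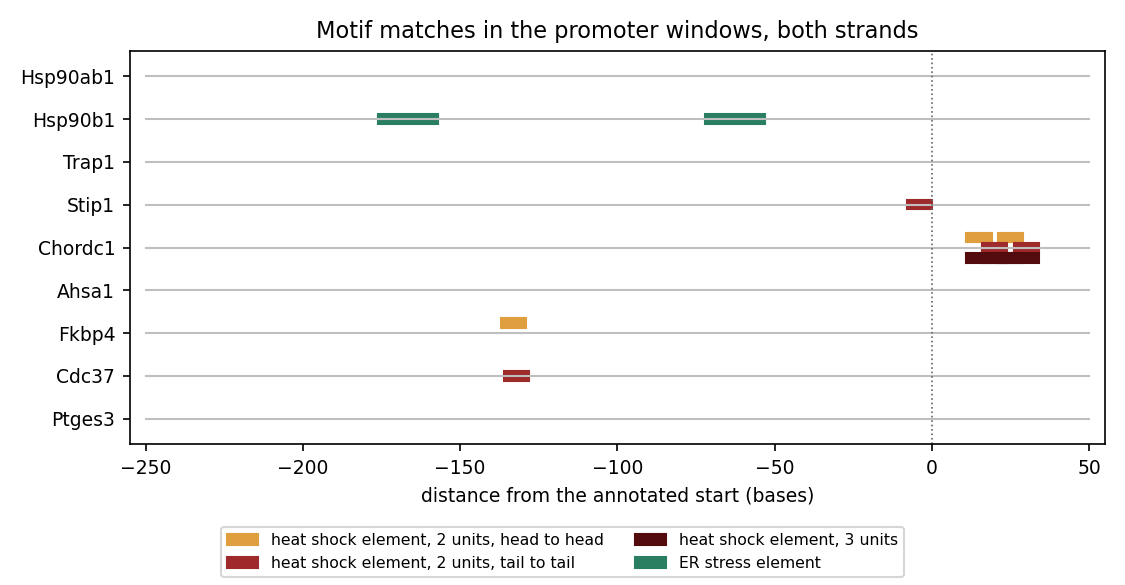
Matches to the 4 searched motifs in the promoter windows of the 9 members in the table, by distance in bases from the annotated start (horizontal axis). The ER stress element appears only in the Hsp90b1 window, and the 3-unit heat shock element only in the Chordc1 window, just after the start.

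Chordc1 encodes a CHORD-domain protein that binds Hsp90, and it was measured by 2 probes. Its brighter probe, A_44_P941132, read 3.73, 3.81 and 3.96 in controls and 3.29, 3.62 and 3.27 in treated livers. The treated values lay below the controls, with replicate 2 the nearest to them, at -0.44 (SE 0.13, limma adjusted p = 0.316). The dimmer probe, A_44_P152329, gave -0.77 (SE 0.17, adjusted p = 0.231), or 1.71-fold lower against 1.36-fold at the brighter one, again with replicate 2 nearest to the controls.

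Stip1 (Hop) is the adaptor that holds Hsp70 and Hsp90 together while a client passes between them. Its single probe, A_43_P13337, read 1.49, 1.33 and 1.46 in controls and 0.93, 1.11 and 1.14 in treated livers. The groups did not overlap, at -0.37 (SE 0.10, limma adjusted p = 0.299), or 1.29-fold lower. Ahsa1, which speeds up the ATPase of Hsp90, read 5.42, 5.52 and 5.37 in controls and 5.20, 5.23 and 5.20 in treated livers at its single probe. The treated arrays were tightly grouped (SD 0.02) below the controls, at a difference of -0.23 (SE 0.08, adjusted p = 0.376), or 1.17-fold lower.

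Fkbp4 (FKBP52) is a peptidyl-prolyl isomerase that joins Hsp90 in steroid receptor complexes. At A_44_P179282, the brightest of its 3 probes, levels were 3.88, 3.68 and 3.79 in controls and 3.40, 3.72 and 3.40 in treated livers. Anthranilic acid replicate 2 lay within the control range at this probe and the other treated arrays below it, giving -0.28 (SE 0.12, limma adjusted p = 0.420). The same array was the highest of the treated group at all 3 probes, whose differences ran from -0.30 to -0.24.

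Cdc37, which brings kinases to Hsp90, was measured by 3 probes that gave 0.03 to 0.12. The brightest, A_64_P147308, read 5.74, 5.90 and 5.90 in controls and 5.88, 5.97 and 6.04 in treated livers. The groups overlapped, at 0.12 (SE 0.09, 95% interval -0.11 to 0.34, limma adjusted p = 0.621). Ptges3 (p23), which holds Hsp90 in its closed, client-bound form, read 5.42, 5.35 and 5.47 in controls and 5.38, 5.52 and 5.37 in treated livers. Its difference was 0.01 (SE 0.09, 95% interval -0.20 to 0.23, adjusted p = 0.960), so a change as large as that of Hsp90ab1 lay outside the interval. The sign of so small a value turned to -0.05 with quantile normalization and with normexp.

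One slide held 5 of the arrays and anthranilic acid replicate 3 lay on another, which was scanned later per the file headers. Within the first slide, which is the same as leaving that array out, Hsp90aa1 stood at -0.78 (SE 0.11, limma adjusted p = 0.177), Hsp90ab1 at -0.51, Chordc1 at -0.38, Stip1 at -0.41, Ahsa1 at -0.22 and Trap1 at 0.16. On that slide the corn oil arrays occupied row 1 and the treated arrays row 2, so the effects of row and of treatment cannot be told apart within it.

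Genes around the Hsp90 cycle were then described from lists that hold none of the 10 members. None of the genes in these lists passed the limma test at an adjusted p under 0.05. In the cytosolic Hsp70 system, which receives clients first and hands them on, 11 of 14 genes were measured, 10 of them on all 6 arrays. Of these 10, 4 were lower and 0 higher at an unadjusted p under 0.05, against 6.14% and 5.49% of all genes tested, with a median of -0.19. The 4 were Hspa8, Hsph1, Dnaja1 and Dnajb4. The inducible Hsp70 gene Hspa1a, the remaining gene, was above background on all 3 control arrays and on none of the treated ones. Its control levels were far apart, at -0.86, -0.075 and -2.02. Measured from their mean, Hspa1a was at least 9.90-fold lower in treated livers. The bound takes the lowest signal above background on each treated array or the probe's own signal, whichever was higher. It does not allow for the spread among the controls. The constitutive Hspa8 was the brightest of its list, at -0.49 (SE 0.09, limma adjusted p = 0.196) at the brightest of its 8 tested probes. Hsph1, a nucleotide exchange factor for Hsp70, stood at -0.68, and the J-domain partner Dnaja1 at -0.34 and Dnajb4 at -0.27. Of the 11 genes measured, Hspa1a included, 8 had a negative difference and the others a positive one. Over all 10257 genes tested, 4923 had a negative difference.

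Of 26 other Hsp90 co-chaperones and partners, 21 were measured, and the median was 0.01, with 1 lower and 1 higher at an unadjusted p under 0.05. Cacybp stood at -0.31 (SE 0.10, limma adjusted p = 0.336) and the membrane-anchored immunophilin Fkbp8 at 0.25 (SE 0.09, adjusted p = 0.387). The brightest, St13 (Hip), stood at 0.03. The heat shock factor genes Hsf1, Hsf2 and Hsf4 and the gene of the factor-binding protein Hsbp1 were all measured, and 0 of the 4 reached an unadjusted p under 0.05. Hsf1, the main stress-responsive factor, stood at 0.15 (SE 0.11), the brightest probe of the list, Hsbp1, at -0.08, and Hsf4 at -0.41 (SE 0.22, adjusted p = 0.473).

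Among the ER folding partners of Hsp90b1, 13 of 14 were measured, 0 reached an unadjusted p under 0.05 in either direction, and the median was -0.13. The lectin chaperone Canx stood at -0.17 (SE 0.11), the disulfide isomerase Pdia6 at -0.19 (SE 0.16) and Hspa5 (BiP), the ER Hsp70 and the brightest of the list, at -0.00 (SE 0.24). The mitochondrial chaperones and proteases had 8 of 9 genes measured, with a median of 0.05 and 0 at an unadjusted p under 0.05. Grpel1 was at 0.12 (SE 0.08), Clpx at 0.12 (SE 0.09) and Hspe1 at 0.01.

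Genes for proteins that depend on Hsp90 were given separately. Of 6 receptors, 4 were measured. The aryl hydrocarbon receptor gene Ahr read lower on all 3 treated arrays, at -0.86 (SE 0.18, limma adjusted p = 0.218), and Ppara stood at -0.73 (SE 0.32, adjusted p = 0.420) with overlap, while the glucocorticoid receptor gene Nr3c1, the brightest, stood at 0.07 (SE 0.12). Of 14 kinases and other clients, 13 were measured with a median of 0.04 and 0 at an unadjusted p under 0.05, with Chuk at 0.28 and Egfr, the brightest, at 0.22.

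**Figure D5:**
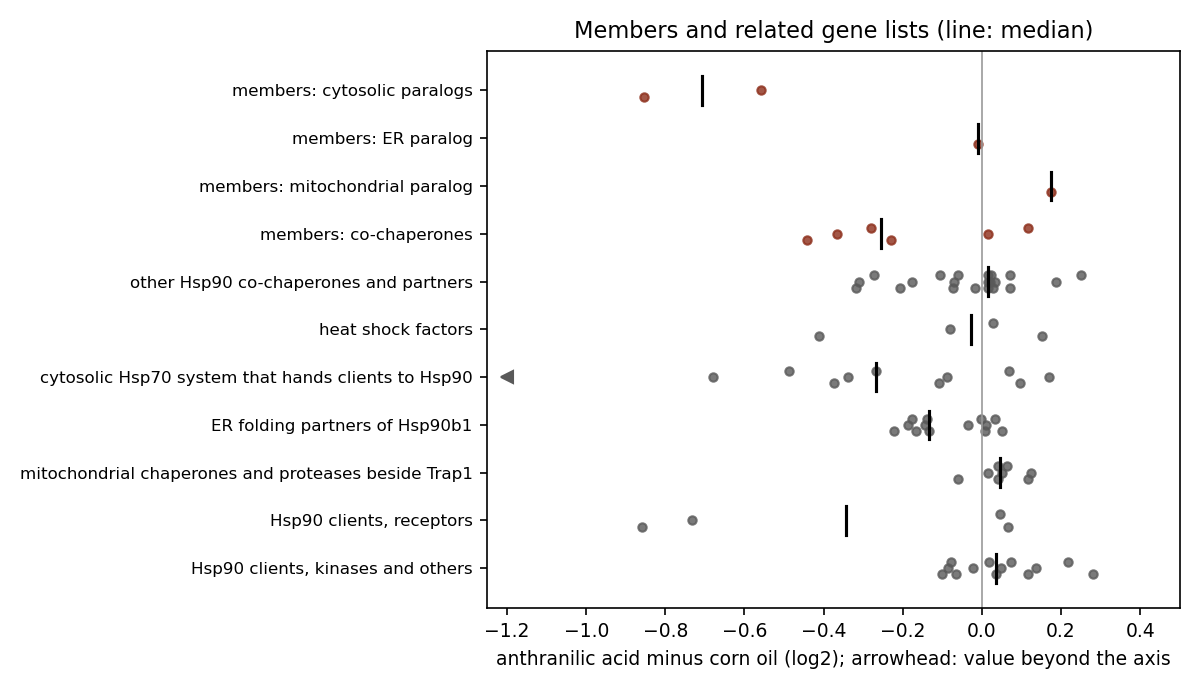
Difference between anthranilic acid and corn oil (log2, horizontal axis) for the brightest probe of each member and of each gene of the related lists, with a line at each median. The medians lie furthest to the left for the cytosolic paralogs (-0.71) and the 4 receptors (-0.34). Of these 4 receptors, only 2 have a negative difference. The Hsp70 system has a median of -0.27 counting Hspa1a and -0.19 without it, beside -0.25 for the member co-chaperones. The arrowhead stands for Hspa1a, whose value lies beyond the axis.

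The profile of Hsp90aa1 over the 6 arrays, centred on its control mean, was compared with those of 10246 other genes by the root mean square of the log2 differences, as a description without a test. The nearest member was Hsp90ab1 (0.23), followed by Chordc1 (0.34) and Stip1 (0.38), and the farthest was Trap1 (0.74). Among other genes above background on all 6 arrays, the nearest were Smox (0.11), Or8c11 (0.11), Oas1e (0.14) and Tyro3 (0.14). None of these 4 is a chaperone gene. Their own differences ran from -0.89 for Oas1e to -0.74 for Or8c11, with limma adjusted p of 0.108 to 0.186. That range follows from how they were picked, because the distance counts the treatment difference. Mybphl had a smaller distance (0.083), but it was not above background on any treated array. Its difference is known only as at least 1.22-fold lower than its control mean, and its place in the order is not settled.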

How the data were processed

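The deposited intensity of each spot is background-subtracted and spatially detrended within its array, without normalisation between arrays. The software was Feature Extraction 10.7.1.1 per the file headers and 10.7 per the submitters' processing notes. The authors' deposited series table holds a ratio, each signal divided by 1 constant for its array that lay within 0.0355% to 0.126% of its 75th percentile, and served as an alternative. No label or header describes that scaling.

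Levels used here are log2 signals minus the log2 of the array's 75th percentile, taken over non-control probes. Control spots and 14 outlier spots of 369942 were left out. A probe was tested if well above background on all 3 arrays of a group, with at least 2 unflagged spots per group (33428 probes). Accessions without versions were matched to the RefSeq table of GRCr8 (27460 of 61657 probes). The headers name the older rn4 build, so coordinates are given for RefSeq promoters alone.

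Both groups entered a single linear model without covariates (limma 3.58.1 under R 4.3.3, empirical Bayes, two-sided), with Benjamini-Hochberg adjustment over all tested probes and a threshold of 0.05. The procedure was tested on simulated data, in 10 runs of 33425 probes with independent normal noise. Over these runs, 500 differences were added at each of the sizes 0.5, 1.0, 2.0 and 4.0 on the log2 scale. At an adjusted p under 0.05 it recovered 2.8% of differences of 0.5, 67.2% of those of 1.0 and 94.6% of those of 2.0. The share recovered depends on how many probes differ, and in the real data only 11 of the 33428 tested probes passed. These shares are therefore not the power in the real data and may be too high for it. Each array is a separate rat per the labels, and 3 arrays per group limit the precision. The members and lists were chosen with earlier results of these data known. Named genes are the members, the 2 genes with the smallest p and the brightest gene of each list, and the 5 nearest profiles to Hsp90aa1. Dnaja1, Dnajb4 and Hsph1 fall outside that rule and were named after their values were seen. A gene of the kinase list that the rule selects and the B cell marker sum are not reported here; Cd79b is given for that list. No label pairs the rats by replicate number, and the main fit treats them as unpaired. Deviations of same-numbered arrays from their group means correlated at r = 0.07, -0.05 and -0.04 across probes. With 3 arrays per group this check cannot exclude a pairing.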

Additional observations from a re-analysis of the deposited data

How the results depend on the processing

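Precision is limited by 3 arrays per group. The count of member probes at an adjusted p under 0.05 moved from 0 to 4 with normexp background correction, which also replaced the processed signal by the median spot signal, 1 with median scaling and 5 with a trended robust variance, all of them Hsp90aa1 probes, and the count of member genes from 0 to 1 with normexp and with the trended robust variance. The cause was not tested. The brightest Hsp90aa1 probe then stood at -0.94 (limma adjusted p = 0.0491) and -0.86 (adjusted p = 0.0336). With normexp, median scaling and the trended robust variance, 50, 21 and 45 of all tested probes passed. Without single arrays, 0 member probes passed under any omission, and the smallest adjusted p ran from 0.111 to 0.282.

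The counts of probes lower at an unadjusted p under 0.05 ran from 14 to 18 over all settings, those of genes from 4 to 6, and the median over the 10 genes from -0.31 to -0.20. The matching shares of all tested probes and genes are given for the main setting alone, so these counts have no background beside them. All 5 paralog pairs kept their direction under every setting run. Values close to 0 changed sign. Ptges3 stood at -0.052 with normexp and -0.047 with quantile normalization, and ran from -0.034 to 0.042 when single arrays were left out. Hsp90b1 stood at 0.041 with median scaling and ran from -0.17 to 0.19 over the omissions. The Cdc37 probes A_64_P152242 and A_44_P441773 stood at -0.021 and -0.016 when slide was blocked, and ran from -0.021 to 0.089 and from -0.016 to 0.058 over the omissions. The medians of the mitochondrial list and of the kinase list were 0.10 and 0.09 with median scaling, which moved the median of all tested probes by 0.05, and the medians of the heat shock factors with Hsbp1 and of the other co-chaperones changed sign within their spread.

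With the replicate number as a block, although no label pairs the rats by it, Hsp90aa1 stood at -0.86 (SE 0.10, limma adjusted p = 0.288). In that fit 14 member probes and 4 member genes were lower at an unadjusted p under 0.05, again without a background share. The adjusted threshold was passed by 0 member probes and by 2 of all 33428 tested probes.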
